A study of Mus musculus with 23 samples.

Results

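The potassium channel genes of the mouse heart are described here across calcineurin-driven hypertrophy, treatment with JIB-04 and age. Members were taken by name, as every feature whose gene symbol is Kcn followed by letters and a number, and 92 of the 43154 features qualified. Of these, 33 reached 1 FPKM (fragments counted per transcript length and per library size, a level per length) in at least 3 of 23 libraries, and these 33 were analysed. Over all features, 13713 reached that level.

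Potassium channels carry the outward currents that end the cardiac action potential and hold the resting potential. Voltage-gated pores open on depolarization and are modified by small accessory subunits, inward rectifiers hold the resting potential or respond to ATP and acetylcholine, and two-pore channels leak. In the mouse ventricle a fast transient outward current dominates repolarization, and smaller or slower potassium currents are a known feature of hypertrophied and failing hearts.

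Whole hearts of C57BL/6 mice were profiled by mRNA sequencing, from WT (wild type) animals or from animals with a calcineurin A transgene (CnATg) under the MHC (myosin heavy chain) promoter, which drives expression in cardiac muscle cells. They were given vehicle, or the Jumonji histone demethylase inhibitor JIB-04 at 50 mg/kg 3 times a week. The groups were WT with vehicle at postnatal day 45 (3 libraries), WT with JIB-04 at day 45 (3) and at day 77 (3), CnATg with vehicle at day 45 (3) and at day 77 (4), and CnATg with JIB-04 at day 45 (3) and at day 77 (4). The series' design text gives WT mice vehicle alone, while 6 libraries are labelled WT with JIB-04. The labels were followed, and this touches the treatment and age comparisons in WT and both genotype comparisons under JIB-04. These 6 libraries were also registered under later sample numbers than all the others, and the labels give no batch. A batch difference, if there was any, cannot be told apart from genotype under JIB-04 or from treatment in WT. Treatment began at week 4 for day 45 and at week 5 for day 77 in the CnATg groups, and the starting week of the WT groups given JIB-04 is not assigned by the labels. WT vehicle libraries of day 77 were not analysed here, so at that age the genotypes are compared only under JIB-04. The labels do not say whether each library is a separate mouse, so p-values measure the spread between libraries.

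The genotype labels matched the transgene, since Ppp3ca, the gene of the calcineurin A alpha subunit, lay at 1415 to 1987 FPKM in CnATg libraries and at 23.6 to 29.0 in WT. Libraries held 12384 to 12782 features of at least 1 FPKM. Absolute depth is unknown. The size of the smallest steps between values put relative depth at 0.623 to 1.012 of the mean library in WT and 1.012 to 1.225 in CnATg, a coarse estimate from rounded values in which several libraries share 1 value. The 0.623 was 1 library, WT JIB-04 replicate 2 of day 45, and the next lowest WT library was at 0.88. That replicate also had the highest summed FPKM and the highest mitochondrial share of FPKM (33.2%) of all libraries. Cardiac muscle genes were abundant in every library (Tnnt2 2747 to 3595 FPKM), and lymphocyte and adipocyte markers summed to at most 3.76 and 0.606 FPKM. The 5 cardiomyocyte markers summed to 7640 to 9132 FPKM in WT and 6539 to 7512 in CnATg. Of these, Tnni3 and Pln were lower in CnATg without overlap, Actn2 was higher without overlap, and Tnnt2 and Ryr2 overlapped. The RNA is from whole tissue, so fewer cells of a type and less RNA per cell cannot be told apart in any value below.

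The members spread over 11 current classes. All of the 2 ATP-sensitive pore genes passed the level threshold, as did 3 of 4 Kir2, 5 of 8 transient outward, 4 of 6 slow and rapid delayed rectifier with Kcne subunits, 2 of 4 acetylcholine-activated Kir3, 5 of 16 Kv1 to Kv3 with beta subunits, 4 of 12 calcium- and sodium-activated, 3 of 11 neuronal Kv7 and EAG, 3 of 14 two-pore, 2 of 10 silent Kv and 0 of 5 other Kir genes. Of the 59 below it, 1 was listed at 0 in every library. Kcna4 was the member nearest to the threshold from inside, with 5 libraries of at least 1 FPKM. Kcnab2, Kcnn3 and Kcnab1 were nearest from outside, with 1 library each.

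Calcineurin acts through NFAT transcription factors, whose core recognition letters are GGAAA, and promoters of 4 members that differed between genotypes are shown to give their sequence context. Each line holds the 250 bases before the RefSeq gene start (build GRCm38.p6), written 5′ to 3′ on the gene's strand, with GGAAA or its reverse complement TTTCC in capitals. Kcnip2 and Kcnq5 were higher in CnATg, Kcnd2 and Kcnj8 lower.
Kcnip2: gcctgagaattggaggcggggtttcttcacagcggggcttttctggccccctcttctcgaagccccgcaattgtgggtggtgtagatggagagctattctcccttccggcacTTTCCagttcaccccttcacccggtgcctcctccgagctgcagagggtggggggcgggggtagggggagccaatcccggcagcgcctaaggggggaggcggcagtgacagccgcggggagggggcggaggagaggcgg
Kcnd2: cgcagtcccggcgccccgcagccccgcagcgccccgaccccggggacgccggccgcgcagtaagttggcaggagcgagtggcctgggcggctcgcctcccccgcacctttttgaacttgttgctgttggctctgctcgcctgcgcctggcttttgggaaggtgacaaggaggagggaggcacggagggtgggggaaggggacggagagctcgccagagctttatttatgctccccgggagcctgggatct
Kcnq5: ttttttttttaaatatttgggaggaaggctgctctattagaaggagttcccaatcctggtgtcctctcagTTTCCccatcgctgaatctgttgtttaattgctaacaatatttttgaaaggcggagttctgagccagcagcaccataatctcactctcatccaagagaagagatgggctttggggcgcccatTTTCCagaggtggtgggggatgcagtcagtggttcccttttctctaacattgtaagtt
Kcnj8: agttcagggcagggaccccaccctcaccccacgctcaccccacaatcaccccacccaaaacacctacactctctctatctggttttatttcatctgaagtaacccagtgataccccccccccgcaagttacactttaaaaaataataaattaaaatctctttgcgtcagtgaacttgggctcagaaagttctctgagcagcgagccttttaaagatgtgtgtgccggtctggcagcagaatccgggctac
These windows lie at chr19:45816064-45816313 (minus strand) for Kcnip2, chr6:21215096-21215345 (plus) for Kcnd2, chr1:21962651-21962900 (minus) for Kcnq5 and chr6:142571615-142571864 (minus) for Kcnj8. Kcnip2 held 1 match, Kcnq5 held 2 in the first of its RefSeq promoters, and Kcnd2 and Kcnj8 held 0. Of other members with a matched promoter, Kcnma1 and Kcnc1, which were higher, held 0. Among lower ones, Kcnh2, Kcnj3, Kcnj5 and Kcnj12 held 0, Kcna5 held 2 and Kcna7, called lower in 2 comparisons, held 4. Whether matches go with direction was not tested. RefSeq promoters were matched for 21 of the 33 members, and 10 of those (47.62%) held at least 1 match on either strand, against 55.58% of 27025 promoters of the same length. Their median GC content was 61.6%, against 52.0% over those promoters. A match is a description of letters and not of a bound site.

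The genotype comparisons carried the differences. With vehicle at day 45, limma called 17 of 30 tested members at an adjusted p under 0.05, 4 higher and 13 lower in CnATg, against 39.2% of the 13289 features tested (23.3% higher, 15.9% lower). With JIB-04 at day 45 it called 18 of 30, 5 higher and 13 lower (all features 38.6%, 20.5% higher and 18.1% lower). With JIB-04 at day 77 it called 19 of 32, 5 higher and 14 lower (all 13212 features 42.1%, 19.9% higher and 22.1% lower). Differences between all features were common in these comparisons, and the members' counts are to be read against that. The median log2 difference of the members was -0.13, -0.09 and -0.20, and that of all features 0.07, 0.02 and -0.01. The libraries of the 2 genotypes did not overlap for 18, 18 and 22 members in these comparisons, against 49.6%, 50.5% and 45% of all features. Leaving out mitochondrial and hemoglobin transcripts and rescaling turned the splits into 6 higher and 11 lower, 8 and 11, and 9 and 12, and moved the median of all features to 0.16, 0.23 and 0.19. Calls gained or lost under that setting, given below, are to be read against this shift.

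Some members passed the filter through one genotype alone, so that the filter itself favours a difference in them. Kcne1 and Kcnv2 passed only through WT. Kcnj14, Kcnma1 and Kcnq5 passed only through CnATg, joined at day 77 by 3 more, among them Kcnc1 and Kcnt2. The members that passed through both genotypes numbered 25, 25 and 24, of which 1, 2 and 1 were higher and 11, 11 and 12 lower. Among all features that passed through both, 22.6%, 19.8% and 18.7% were higher and 15.3%, 17.5% and 22.2% lower.

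The 3 genotype comparisons use separate libraries, although the day 45 pair shares 1 estimate of the spread, and 16 of the 29 members tested in all were called in the same direction in each, 4 higher and 12 lower. Over the 12989 features tested in all, that share was 26.5% (14.1% higher, 12.5% lower). Kcnip2, Kcnma1, Kcnq5 and Kcnj14 were higher. The 12 lower members included Kcne1, Kcnq1, Kcnh2, Kcnj3, Kcnj5, Kcnj8, Kcnj12, Kcna5, Kcnd2 and Kcnv2. The count holds members in which the filter favours a call. Kcnma1, Kcnq5 and Kcnj14 passed it only through CnATg, and Kcne1 and Kcnv2 only through WT. Of these 16, 14 kept their calls in every comparison under every alternative in which they were tested, and Kcnj5 and Kcna5 did not. Kcne1 and Kcnv2 fell under the filter, and so were not tested, at day 77 without any 1 of the 3 WT libraries.

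**Figure D1:**
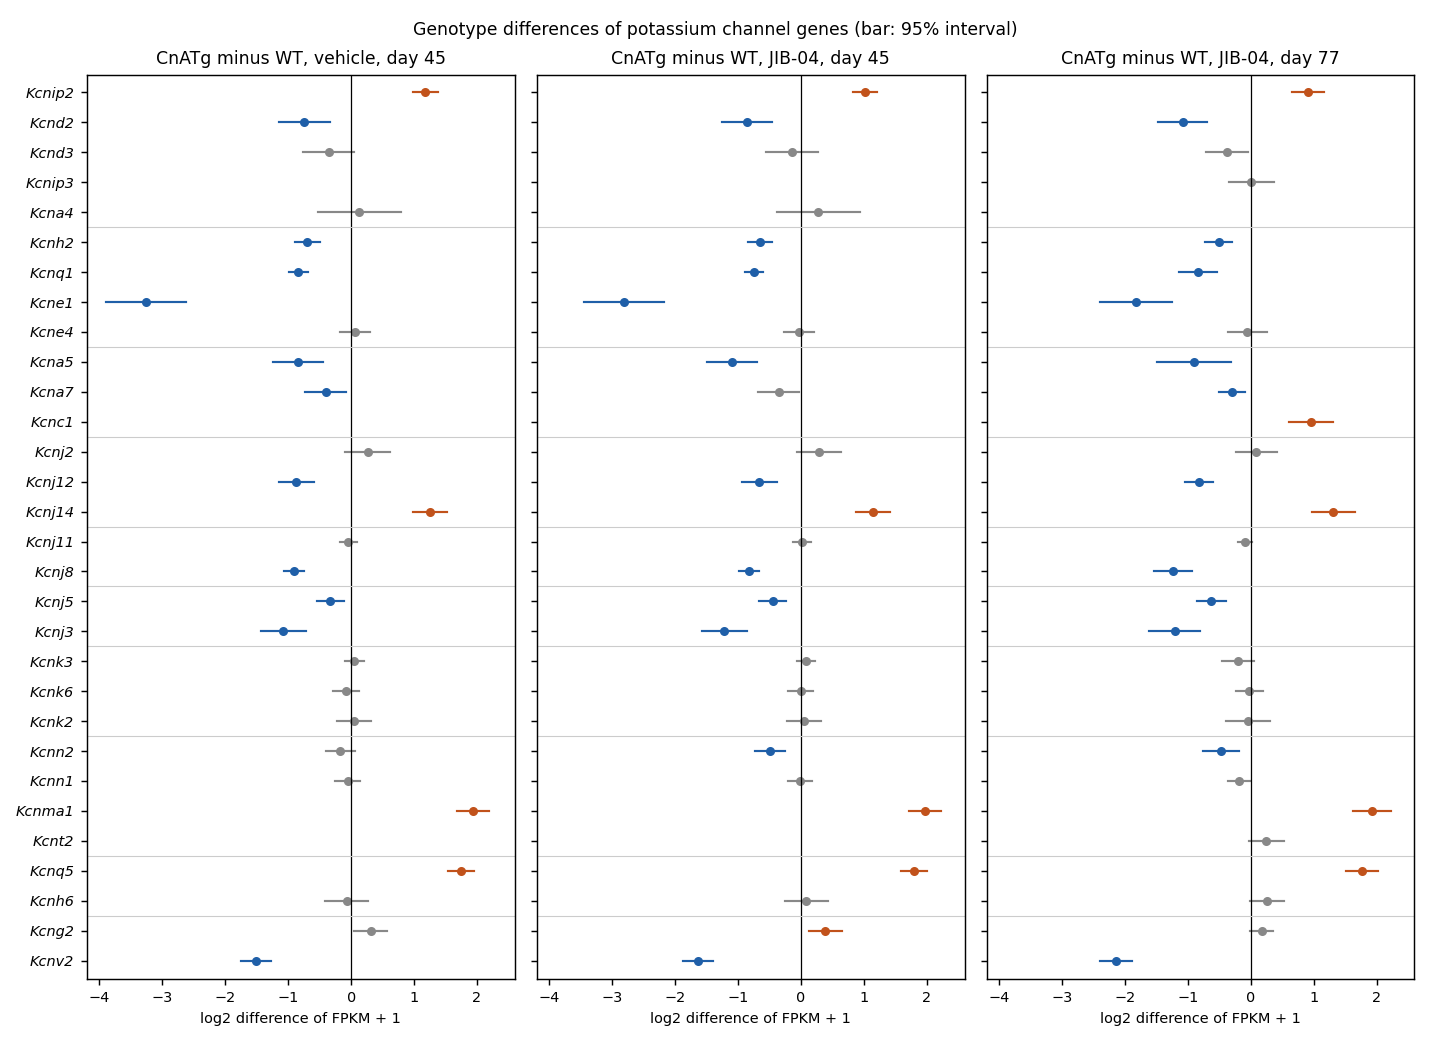
Log2 differences of FPKM + 1, CnATg minus WT (x axis), for the members reported here (y axis, grouped by current class between grey lines) in 3 comparisons, with bars for 95% intervals, orange for members called higher, blue for lower and grey for no call at an adjusted p under 0.05. Kcne1 lies farthest to the left at day 45 (-3.26 with vehicle), Kcnma1 farthest to the right (1.94), and the two-pore genes straddle 0.

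Values below are given by library, and genotype differences are CnATg minus WT on the log2(FPKM + 1) scale, in the order vehicle at day 45, JIB-04 at day 45 and JIB-04 at day 77, with Benjamini-Hochberg adjusted p from limma. This scale understates the change of genes at low level.

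The transient outward genes split in opposite directions. Kcnip2 (chr19:45791839-45816061), which encodes the KChIP2 subunit that brings Kv4 pores to the membrane and slows their inactivation, rose. In WT, Kcnip2 measured 109, 103 and 104 FPKM with vehicle at day 45, 123, 117 and 95.8 with JIB-04 at day 45, and 104, 103 and 105 with JIB-04 at day 77. In CnATg, Kcnip2 measured 234, 247 and 238 FPKM with vehicle and 235, 242 and 204 with JIB-04 at day 45, then 228, 192, 255 and 185 with vehicle and 232, 174, 182 and 203 with JIB-04 at day 77. Every CnATg library lay above every WT library. For Kcnip2, the genotype differences were 1.18, 1.02 and 0.91 (SE 0.09, 0.09 and 0.12, adjusted p = 1.94e-06, 6.05e-06 and 0.0001). Kcnd2 (chr6:21215503-21729805), the Kv4.2 pore gene, fell. In WT, Kcnd2 measured 4.56, 6.25 and 4.99 FPKM with vehicle at day 45, 4.49, 6.32 and 4.90 with JIB-04 at day 45, and 4.76, 5.38 and 4.41 with JIB-04 at day 77. In CnATg, Kcnd2 measured 2.48, 3.19 and 2.51 FPKM with vehicle and 1.85, 3.63 and 2.04 with JIB-04 at day 45, then 2.65, 3.11, 3.13 and 1.52 with vehicle and 1.28, 1.59, 2.2 and 2.06 with JIB-04 at day 77. The genotypes did not overlap. For Kcnd2, the genotype differences were -0.75, -0.86 and -1.08 (SE 0.18, 0.18 and 0.18, adjusted p = 0.00722, 0.00327 and 0.000483). The ratio of Kcnip2 to Kcnd2 within a library was 16.4 to 27.4 (median 20.8) in WT and 61.8 to 181 (median 94.6) in CnATg. Kcnd3, the Kv4.3 pore gene, gave -0.36, -0.14 and -0.38 with no call. The day 77 difference was called with sex as a term (-0.49, adjusted p = 0.0143), with quantile normalization (0.0404) and without CnATg JIB-04 replicate 2 (0.0399) or 4 (0.0327). The Kcnd2 to Kcnd3 ratio had a median of 1.43 in WT and 0.89 in CnATg, with ranges that overlapped (1.13 to 1.65 and 0.49 to 1.35). Kcna4 (Kv1.4) and Kcnip3 had no call where tested, with libraries at 0.305 to 2.25 and 0.554 to 1.88 FPKM. Kcnip2 made up 16.2 to 19.9% of the summed FPKM of all 92 members in WT and 29.9 to 38.4% in CnATg.

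**Figure D2:**
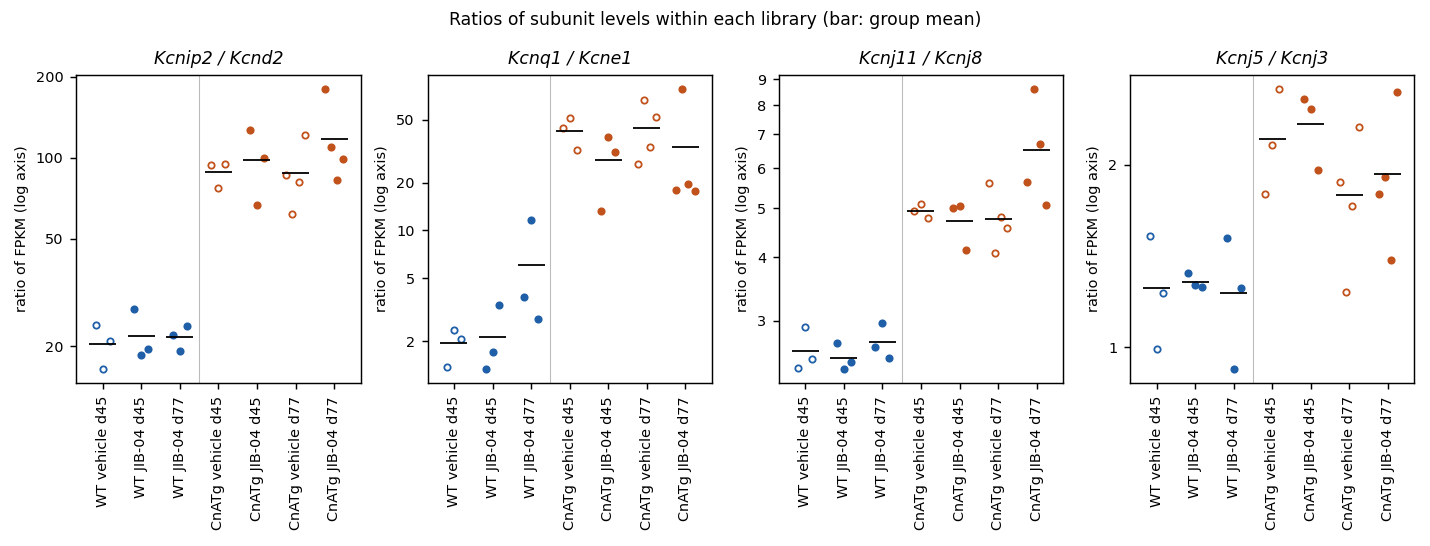
Ratio of 2 subunit levels within each library (y axis, log scale) by group (x axis), with open points for vehicle, filled points for JIB-04, blue for WT, orange for CnATg and bars for group means. CnATg libraries lie above all WT libraries for Kcnip2 to Kcnd2, for Kcnq1 to Kcne1 and for Kcnj11 to Kcnj8, while Kcnj5 to Kcnj3 overlaps (0.92 to 1.53 in WT, 1.24 to 2.67 in CnATg).

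In the class of slow and rapid delayed rectifiers, 3 of 4 genes were lower in all 3 comparisons. Kcne1 (chr16:92346001-92359468), the accessory subunit that joins Kcnq1 to form the slow delayed rectifier, had the most negative difference of all members at day 45. In WT, Kcne1 measured 16.4, 8.66 and 9.73 FPKM with vehicle at day 45, 14.2, 9.77 and 5.36 with JIB-04 at day 45, and 5.19, 1.97 and 6.21 with JIB-04 at day 77. In CnATg, Kcne1 measured 0.254, 0.235 and 0.329 FPKM with vehicle and 0.770, 0.262 and 0.332 with JIB-04 at day 45, then 0.460, 0.131, 0.286 and 0.146 with vehicle and 0.518, 0.145, 0.568 and 0.589 with JIB-04 at day 77. All 14 CnATg libraries were under 1 FPKM, and WT libraries varied widely. For Kcne1, the genotype differences were -3.26, -2.82 and -1.82 (SE 0.29, 0.29 and 0.26, adjusted p = 6.55e-06, 1.97e-05 and 0.000198). With a pseudocount of 0.1 the vehicle difference was -4.92. Kcnq1 (chr7:143106362-143427042), the pore of that current, fell as well. In WT, Kcnq1 measured 22.5, 20.4 and 20.2 FPKM with vehicle at day 45, 18.9, 16.6 and 18.1 with JIB-04 at day 45, and 19.7, 22.8 and 17.1 with JIB-04 at day 77. In CnATg, Kcnq1 measured 11.3, 12.1 and 10.6 FPKM with vehicle and 10.2, 10.2 and 10.3 with JIB-04 at day 45, then 12.1, 8.63, 9.56 and 7.59 with vehicle and 9.29, 11.4, 11.1 and 10.5 with JIB-04 at day 77. The genotypes were apart in all libraries. For Kcnq1, the genotype differences were -0.84, -0.75 and -0.84 (SE 0.07, 0.07 and 0.14, adjusted p = 3.2e-06, 7.79e-06 and 0.00049). Within libraries, the Kcnq1 to Kcne1 ratio was higher in CnATg, at 13.3 to 78.6 (median 32.8) against 1.33 to 11.6 (median 2.35). Kcnh2 (chr5:24319589-24351604), the ERG pore of the rapid delayed rectifier, also fell. In WT, Kcnh2 measured 45.1, 41.0 and 44.7 FPKM with vehicle at day 45, 47.8, 40.7 and 46.1 with JIB-04 at day 45, and 36.2, 33.2 and 43.8 with JIB-04 at day 77. In CnATg, Kcnh2 measured 27.6, 26.4 and 25.6 FPKM with vehicle and 31.4, 28.7 and 24.6 with JIB-04 at day 45, then 29.9, 30.8, 31.4 and 29.6 with vehicle and 26.7, 22.2, 28.8 and 26.9 with JIB-04 at day 77. The lowest WT library lay above the highest CnATg library. For Kcnh2, the genotype differences were -0.69, -0.65 and -0.51 (SE 0.09, 0.09 and 0.10, adjusted p = 8.49e-05, 0.000136 and 0.00151). Kcne4, another accessory subunit, had no call (0.06, -0.04 and -0.05). Summed over the class, FPKM was 59.6 to 85.2 in WT and 34.8 to 43.8 in CnATg.

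Kcna5, which encodes Kv1.5, the pore of the ultrarapid delayed rectifier current, was lower. Its deposited locus, chr6:126532553-126698192, also spans that of Kcna1 (chr6:126636463-126645801), which reached at most 0.461 FPKM. The part of Kcna1 in the Kcna5 value was not tested. In WT, Kcna5 measured 9.87, 13.0 and 8.97 FPKM with vehicle at day 45, 9.70, 9.33 and 15.7 with JIB-04 at day 45, and 7.56, 13.3 and 8.14 with JIB-04 at day 77. In CnATg, Kcna5 measured 5.96, 5.17 and 5.07 FPKM with vehicle and 4.99, 5.16 and 4.13 with JIB-04 at day 45, then 2.6, 4.74, 4.87 and 4.81 with vehicle and 5.90, 5.20, 5.50 and 2.42 with JIB-04 at day 77. The genotypes did not overlap, and WT spread was wide. For Kcna5, the genotype differences were -0.85, -1.10 and -0.90 (SE 0.18, 0.18 and 0.27, adjusted p = 0.00291, 0.000526 and 0.0188). At day 77 the Kcna5 call was lost without WT JIB-04 replicate 2 (-0.67, adjusted p = 0.0832). Kcna7 gave -0.41, -0.35 and -0.30 with adjusted p of 0.04998, 0.0825 and 0.0262, the first just under the threshold. It lost its call under 10 of 17 alternatives with vehicle at day 45 and 8 of 18 at day 77. With JIB-04 at day 45, Kcna7 was called with all 23 libraries in the fit (adjusted p = 0.0369) and with sex as a term (0.0228). It was also called there without WT JIB-04 replicate 2 (0.039) or CnATg JIB-04 replicate 2 (0.0363). Kcnc1 (chr7:46396497-46438375), the Kv3.1 pore gene, was not tested at day 45 and rose at day 77. In WT, Kcnc1 measured 0.0154, 0.0490 and 0.0403 FPKM with vehicle at day 45, 0.0253, 0.0374 and 0.0161 with JIB-04 at day 45, and 0.0800, 0.469 and 0.0695 with JIB-04 at day 77. In CnATg, Kcnc1 measured 0.956, 1.36 and 0.805 FPKM with vehicle and 0.880, 1.5 and 0.492 with JIB-04 at day 45, then 1.71, 1.39, 1.95 and 1.19 with vehicle and 1.68, 1.13, 1.04 and 1.48 with JIB-04 at day 77. WT libraries were near 0 apart from 1 at 0.469, and the lowest CnATg library was at 0.492. For Kcnc1, the genotype difference was 0.96 (SE 0.16, adjusted p = 0.000502), or 2.44 with a pseudocount of 0.1. Without the filter on low values it was also called at day 45, at 0.97 with vehicle and 0.90 with JIB-04 (adjusted p = 0.00255 and 0.00392).

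**Figure D3:**
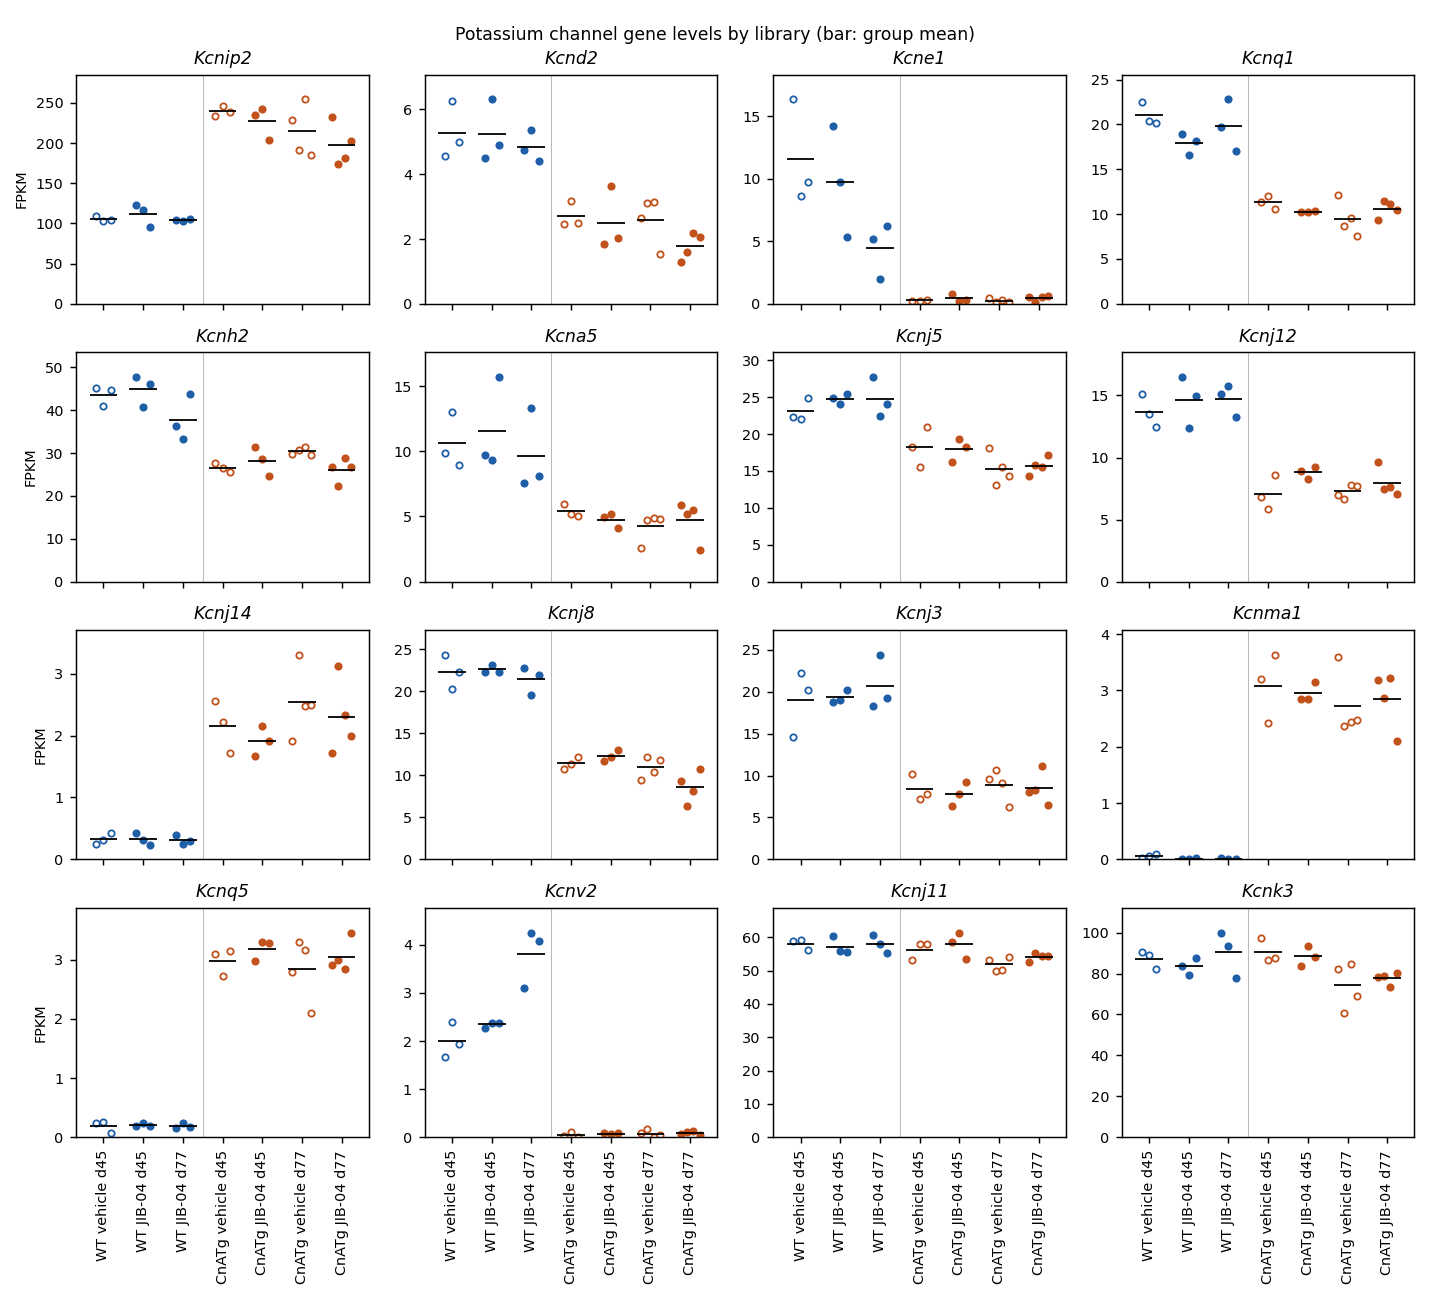
FPKM (y axis, from 0) of 16 members by group (x axis), with open points for vehicle, filled points for JIB-04, blue for WT and orange for CnATg, and bars for group means. Kcnip2, Kcnj14, Kcnma1 and Kcnq5 are higher in CnATg, Kcnj11 and Kcnk3 overlap between genotypes, and the other 10 are lower.

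The Kir2 inward rectifiers, which hold the resting potential, changed in composition more than in sum. Kcnj12 (chr11:61022564-61071131), Kir2.2, fell. In WT, Kcnj12 measured 15.1, 13.5 and 12.5 FPKM with vehicle at day 45, 16.5, 12.4 and 14.9 with JIB-04 at day 45, and 15.1, 15.7 and 13.3 with JIB-04 at day 77. In CnATg, Kcnj12 measured 6.79, 5.88 and 8.57 FPKM with vehicle and 8.95, 8.23 and 9.22 with JIB-04 at day 45, then 6.96, 6.68, 7.82 and 7.67 with vehicle and 9.64, 7.44, 7.61 and 7.02 with JIB-04 at day 77. The genotypes were separate. For Kcnj12, the genotype differences were -0.87, -0.66 and -0.82 (SE 0.13, 0.13 and 0.10, adjusted p = 0.000248, 0.00164 and 7.04e-05). Kcnj14 (chr7:45816461-45824756), Kir2.4, rose from a low level. In WT, Kcnj14 measured 0.250, 0.307 and 0.421 FPKM with vehicle at day 45, 0.419, 0.318 and 0.230 with JIB-04 at day 45, and 0.400, 0.244 and 0.296 with JIB-04 at day 77. In CnATg, Kcnj14 measured 2.55, 2.21 and 1.72 FPKM with vehicle and 1.67, 2.15 and 1.92 with JIB-04 at day 45, then 1.91, 3.31, 2.48 and 2.49 with vehicle and 1.71, 3.12, 2.34 and 1.99 with JIB-04 at day 77. The highest WT library was at 0.421 FPKM and the lowest CnATg library at 1.67. For Kcnj14, the genotype differences were 1.25, 1.14 and 1.31 (SE 0.12, 0.12 and 0.16, adjusted p = 1.38e-05, 2.71e-05 and 5.66e-05). With a pseudocount of 0.1 these became 2.41, 2.27 and 2.52. Kcnj2, Kir2.1, had no call (0.26, 0.28 and 0.09) and lay at 7.89 to 15.4 FPKM in WT and 10.9 to 17.9 in CnATg. With mitochondrial and hemoglobin transcripts left out, Kcnj2 was called higher with JIB-04 at day 45 (0.51, adjusted p = 0.0180). The Kcnj12 share of the class sum had a median of 50.6% in WT and 30.6% in CnATg, the Kcnj14 share 1.11% and 8.96%, and the Kcnj2 share 48.1% and 60.0%. The Kcnj2 share overlapped between genotypes (34.1 to 50.03% in WT, 49.8 to 65.9% in CnATg), and the shares of Kcnj12 and Kcnj14 did not. The sum itself overlapped, at 23.1 to 30.9 FPKM in WT and 21.4 to 29.4 in CnATg.

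The ATP-sensitive pores parted. Kcnj8 (chr6:142564939-142571356), Kir6.1, which is abundant in vascular smooth muscle and pericytes, fell. In WT, Kcnj8 measured 24.4, 20.3 and 22.4 FPKM with vehicle at day 45, 22.3, 23.2 and 22.4 with JIB-04 at day 45, and 22.8, 19.6 and 21.9 with JIB-04 at day 77. In CnATg, Kcnj8 measured 10.8, 11.4 and 12.1 FPKM with vehicle and 11.7, 12.2 and 13.0 with JIB-04 at day 45, then 9.48, 12.2, 10.5 and 11.9 with vehicle and 9.32, 6.41, 8.10 and 10.7 with JIB-04 at day 77. All CnATg libraries lay below all WT libraries. For Kcnj8, the genotype differences were -0.91, -0.83 and -1.24 (SE 0.07, 0.07 and 0.14, adjusted p = 2.61e-06, 5.4e-06 and 3.7e-05). Kcnj11, the Kir6.2 pore of muscle cells, lay at 55.5 to 60.6 FPKM in WT and 49.9 to 61.5 in CnATg with no call (-0.04, 0.01 and -0.10), and at day 77 leaving out mitochondrial and hemoglobin transcripts turned it to 0.13 (adjusted p = 0.0419). The Kcnj11 to Kcnj8 ratio had a median of 2.53 in WT and 5.03 in CnATg. The sulfonylurea receptor gene Abcc9, the usual partner of both pores in muscle, gave -0.22, -0.28 and -0.45 (adjusted p = 0.0828, 0.0348 and 0.0024), and Abcc8 0.33, 0.28 and 0.37 (0.0518, 0.0976 and 0.00618). Smooth muscle and pericyte markers moved beside Kcnj8 in both directions. Rgs5 (-0.86, -0.74 and -1.10) and Pdgfrb fell, Acta2 (2.29, 2.43 and 2.38) and Cspg4 rose, and the summed level of all 6 ranged from 233 to 372 FPKM in WT and from 364 to 651 in CnATg. The higher sum is mainly Acta2, at 31.7 to 134 FPKM in WT and 240 to 487 in CnATg. Rgs5 lay at 120 to 153 FPKM in WT and 50.4 to 87.0 in CnATg. Abcc9, also in this list, lay at 53.2 to 63.2 and 37.7 to 52.6. Endothelial markers fell too, 6, 5 and 6 of 6, with sums of 274 to 355 FPKM in WT and 141 to 232 in CnATg. The part of these cells in the Kcnj8 difference was not tested.

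The acetylcholine-activated Kir3 pores, known for slowing the atria and nodes under vagal tone, were lower. Kcnj3 (chr2:55435970-55598145), Kir3.1, fell more than Kcnj5, Kir3.4, although the difference between them was not tested. In WT, Kcnj3 measured 14.6, 22.2 and 20.2 FPKM with vehicle at day 45, 18.7, 19.1 and 20.2 with JIB-04 at day 45, and 18.3, 24.4 and 19.3 with JIB-04 at day 77. In CnATg, Kcnj3 measured 10.2, 7.20 and 7.85 FPKM with vehicle and 6.32, 7.84 and 9.27 with JIB-04 at day 45, then 9.64, 10.6, 9.11 and 6.19 with vehicle and 7.98, 8.25, 11.1 and 6.50 with JIB-04 at day 77. The genotypes did not overlap for Kcnj3. For Kcnj3, the genotype differences were -1.08, -1.22 and -1.21 (SE 0.16, 0.16 and 0.18, adjusted p = 0.000304, 0.000128 and 0.000318). The kit kept no strand, and 31.08% of the exonic bases of Kcnj3 are shared with the antisense gene Gm26794, which lay at 1.32 to 2.27 FPKM in WT and 0.352 to 0.897 in CnATg. Reads from the shared bases cannot be told apart. In WT, Kcnj5 measured 22.4, 22.1 and 24.9 FPKM with vehicle at day 45, 24.8, 24.1 and 25.5 with JIB-04 at day 45, and 27.8, 22.5 and 24.1 with JIB-04 at day 77. In CnATg, Kcnj5 measured 18.3, 15.5 and 21 FPKM with vehicle and 16.2, 19.4 and 18.2 with JIB-04 at day 45, then 18.1, 13.2, 15.6 and 14.3 with vehicle and 14.3, 15.7, 15.5 and 17.2 with JIB-04 at day 77. The lowest WT library of Kcnj5 lay above the highest CnATg library. For Kcnj5, the genotype differences were -0.33, -0.45 and -0.63 (SE 0.10, 0.10 and 0.11, adjusted p = 0.02, 0.00391 and 0.00062). The vehicle call for Kcnj5 was lost without WT vehicle replicate 3 (adjusted p = 0.0765) or CnATg vehicle replicate 2 (0.0735), and both day 45 calls were lost when mitochondrial and hemoglobin transcripts were left out (0.168 and 0.189). Of 5 atrial muscle markers, Nppa, which is also induced in hypertrophied ventricles, rose (1.68, 1.35 and 1.88), and Myl4 rose in 2 comparisons (2.67, 1.18 and 1.62). Myl7 had no call (2.85, 0.68 and 1.36), nor had Sln at day 45 (2.18 and -0.41), which was not tested at day 77, and Bmp10 was at 0 in every WT library. Myl4 and Myl7 spread widely within genotypes, from 8.13 to 77.9 and from 1.48 to 82.7 FPKM in CnATg. The 5 summed to 196 to 358 FPKM in WT and 327 to 1279 in CnATg, mostly Nppa (192 to 356 and 317 to 1263). The part of atrial tissue in the Kir3 and Kcna5 values was not tested.

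Other parts of the signalling chain to the Kir3 pore differed in both directions. Chrm2, the muscarinic receptor of cardiac muscle, rose from 19.4 to 27.7 FPKM across WT to 30.1 to 38.6 across CnATg (0.61, 0.34 and 0.54). Adora1, the adenosine receptor that opens the same pore, fell (-1.14, -0.95 and -0.89). The G-protein regulators Rgs6 (-0.66, -0.70 and -0.85) and Rgs4 (-0.68, -0.46 and -0.67) fell, and the G-protein alpha subunit gene Gnao1 rose (0.52, 0.77 and 0.82). In the list of 30 channel partners, receptors and regulators, 24 were tested, and 6, 5 and 6 were higher and 5, 7 and 7 lower. Over all features, 23.3%, 20.5% and 19.9% were higher and 15.9%, 18.1% and 22.1% lower.

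None of the 3 two-pore genes tested had a genotype call on the deposited scale. Kcnk3, TASK-1, an acid-sensitive leak channel, was the most abundant at 77.6 to 100.1 FPKM in WT and 60.5 to 97.6 in CnATg (0.05, 0.08 and -0.21, with intervals of -0.09 to 0.20, -0.06 to 0.23 and -0.46 to 0.05). With mitochondrial and hemoglobin transcripts left out, Kcnk3 was called higher with JIB-04 at day 45 (0.33, adjusted p = 0.0242). Kcnk6 and Kcnk2 lay between 0.585 and 1.76 FPKM.

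Among calcium- and sodium-activated genes, Kcnma1 (chr14:23289431-24004859), the BK pore opened jointly by calcium and voltage, rose from near 0. In WT, Kcnma1 measured 0.0203, 0.0636 and 0.0928 FPKM with vehicle at day 45, 0.0007, 0 and 0.0288 with JIB-04 at day 45, and 0.0210, 0 and 0 with JIB-04 at day 77. In CnATg, Kcnma1 measured 3.21, 2.42 and 3.63 FPKM with vehicle and 2.85, 2.84 and 3.15 with JIB-04 at day 45, then 3.59, 2.36, 2.45 and 2.48 with vehicle and 3.18, 2.87, 3.22 and 2.11 with JIB-04 at day 77. In WT 3 libraries were listed at 0, and the lowest CnATg library was at 2.11. For Kcnma1, the genotype differences were 1.94, 1.97 and 1.92 (SE 0.12, 0.12 and 0.14, adjusted p = 2.79e-07, 2.57e-07 and 1.14e-06). With a pseudocount of 0.1 these became 4.33, 4.80 and 4.77. Lrrc52, which encodes a gamma subunit of BK-type channels, rose with it, from 0.467 to 4.64 FPKM across WT to 17.3 to 31.9 across CnATg (3.41, 3.55 and 2.80, adjusted p = 6.76e-08, 5.37e-08 and 3.55e-06). Kcnma1 is abundant in smooth muscle, and the smooth muscle and pericyte list given above beside Kcnj8 moved in both directions, with Myh11 without a call (-0.32, 0.07 and -0.47). The part of such cells in the Kcnma1 value was not tested. Kcnn2, SK2, fell in the JIB-04 comparisons (-0.17, -0.49 and -0.47, adjusted p = 0.233, 0.00364 and 0.012), and these calls were lost with mitochondrial and hemoglobin transcripts left out (0.117 and 0.106). Kcnn1 and, at day 77, Kcnt2 had no call, although Kcnt2 was called there with those transcripts left out (0.35, adjusted p = 0.0439). Kcnt2 was not tested at day 45 in the main fit. With those transcripts left out it was called higher there with vehicle (0.35, 0.0339) and JIB-04 (0.38, 0.0215). The vehicle difference was also called without the filter (0.31, 0.0285), with the filter over all 23 libraries (0.0439) and with all 23 libraries in the fit (0.045).

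**Figure D4:**
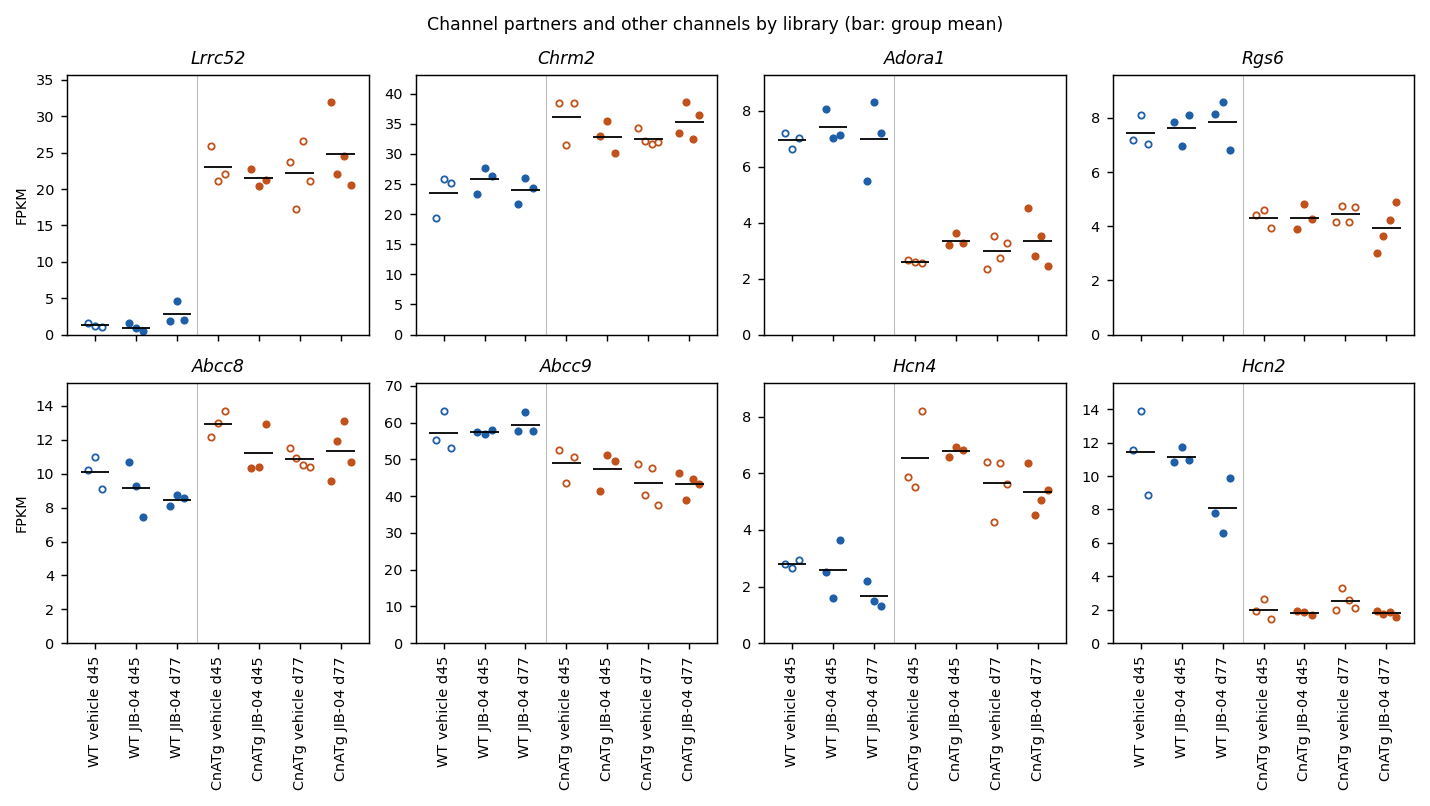
FPKM (y axis, from 0) of 6 channel partners and of Hcn4 and Hcn2 by group (x axis), with open points for vehicle, filled points for JIB-04, blue for WT, orange for CnATg and bars for group means. Lrrc52, Chrm2 and Hcn4 are higher in CnATg, Adora1, Rgs6 and Hcn2 are lower with no overlap, and Abcc8 overlaps.

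Of the neuronal Kv7 and EAG genes, Kcnq5 (chr1:21398403-21961942), Kv7.5, known from neurons and smooth muscle, rose. In WT, Kcnq5 measured 0.233, 0.255 and 0.0762 FPKM with vehicle at day 45, 0.193, 0.235 and 0.182 with JIB-04 at day 45, and 0.156, 0.238 and 0.170 with JIB-04 at day 77. In CnATg, Kcnq5 measured 3.09, 2.72 and 3.14 FPKM with vehicle and 2.98, 3.30 and 3.28 with JIB-04 at day 45, then 2.80, 3.30, 3.17 and 2.11 with vehicle and 2.91, 3.00, 2.85 and 3.46 with JIB-04 at day 77. The highest WT library was at 0.255 FPKM and the lowest CnATg library at 2.11. For Kcnq5, the genotype differences were 1.75, 1.80 and 1.77 (SE 0.10, 0.10 and 0.12, adjusted p = 1.6e-07, 1.18e-07 and 6.67e-07). With a pseudocount of 0.1 these became 3.48, 3.44 and 3.46. Kcnh6 had no call, and at day 77 was called higher with mitochondrial and hemoglobin transcripts left out (0.39, adjusted p = 0.0260) and without CnATg JIB-04 replicate 2 (0.35, 0.0384).

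Silent Kv subunits form no channel alone and modify other Kv pores. Kcnv2 (chr19:27322588-27337179), Kv8.2, fell to near 0. In WT, Kcnv2 measured 1.67, 2.39 and 1.93 FPKM with vehicle at day 45, 2.28, 2.38 and 2.37 with JIB-04 at day 45, and 3.11, 4.26 and 4.08 with JIB-04 at day 77. In CnATg, Kcnv2 measured 0.0196, 0.101 and 0.00840 FPKM with vehicle and 0.0890, 0.0578 and 0.0815 with JIB-04 at day 45, then 0.0898, 0.166, 0.0105 and 0.0410 with vehicle and 0.0636, 0.116, 0.126 and 0.0454 with JIB-04 at day 77. The highest CnATg library was at 0.166 FPKM. For Kcnv2, the genotype differences were -1.52, -1.64 and -2.14 (SE 0.11, 0.11 and 0.11, adjusted p = 1.09e-06, 5.97e-07 and 1.34e-07). Kcng2, Kv6.2, was the most abundant member by its WT median, at 94.6 to 139.6 FPKM in WT and 118.8 to 168 in CnATg. Its differences were 0.31, 0.39 and 0.17 (adjusted p = 0.0583, 0.0232 and 0.115), with a call with JIB-04 at day 45. The other two differences were called under some alternatives, with vehicle under 7 (adjusted p = 0.0276 to 0.0476) and at day 77 under 3 (quantile normalization, 0.0250, mitochondrial and hemoglobin transcripts left out, 0.00118, and without WT JIB-04 replicate 2, 0.00276). The day 45 call with JIB-04 was lost without the filter on low values (0.0623) and without any 1 of 4 libraries, WT JIB-04 replicates 1 and 2 and CnATg JIB-04 replicates 1 and 2, with adjusted p of 0.0523 to 0.069.

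In order of median level in WT, the first members were Kcng2 (115 FPKM), Kcnip2 (104), Kcnk3 (87.8), Kcnj11 (58.1), Kcnh2 (43.8), Kcnj5 (24.1) and Kcnj8 (22.4). Kcng2, Kcnip2 and Kcnk3 overlapped in range, as did Kcnj5 and Kcnj8, so their order is not settled. In CnATg the order began with Kcnip2 (230.2), Kcng2 (134), Kcnk3 (83.1), Kcnj11 (54.3), Kcnh2 (28.1), Kcnj5 (16.0) and Kcnj2 (15.1). Here the ranges of Kcnip2 and Kcng2 were apart, and those of Kcnk3 and Kcnj11 and of Kcnj5 and Kcnj2 overlapped.

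Other channels and exchangers of the action potential, a list of 22 with 20 tested, gave 8, 8 and 7 higher and 6, 9 and 7 lower. The shares over all features were 23.3%, 20.5% and 19.9% higher and 15.9%, 18.1% and 22.1% lower. The pacemaker channel Hcn2 fell (-2.04, -2.11 and -1.69) and Hcn4 rose (0.97, 1.16 and 1.26). Scn4b (1.76, 1.48 and 0.77) and the T-type calcium channel Cacna1g (1.23, 1.30 and 1.36) rose. Fibroblast markers were higher in 6, 6 and 4 of 6 and ventricular muscle markers lower in 4 of 5 each time, with ventricular sums of 9225 to 10768 FPKM in WT and 6771 to 8167 in CnATg. The remaining ventricular marker, Irx4, gave 0.21, 0.26 and 0.19 and was called higher with JIB-04 at day 45 (adjusted p = 0.0263). Their part in the channel values was not tested.

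JIB-04 gave no call in any member in the 3 treatment comparisons. In CnATg at day 45 limma called 0 of 30 members (0.00753% of all features, 1 member at an unadjusted p under 0.05, Kcnj12). In WT at day 45 it called 0 of 30 (0% of all features, 2 members at an unadjusted p under 0.05, Kcnq1 and Kcnn2). In CnATg at day 77 it called 0 of 32 (0% of all features, 3 members at an unadjusted p under 0.05, Kcnj8, Kcnh2 and Kcnd2). The largest differences by size were 0.36, -0.28 and -0.36, and the median half-width of the 95% intervals was 0.24, 0.24 and 0.26. The libraries of the compared groups did not overlap for 1, 2 and 1 members, against 11.2%, 7.49% and 4.93% of all features: Kcnq1 in CnATg at day 45, Kcnq1 and 1 other in WT, and Kcnh2 in CnATg at day 77. A missing call does not show that the drug left the levels the same. Kcnip2 gave -0.08 (-0.28 to 0.12), 0.08 (-0.12 to 0.28) and -0.12 (-0.36 to 0.12). Kcnj8 gave 0.10 and 0.02 at day 45 and -0.33 (-0.61 to -0.05, adjusted p = 0.625) in CnATg at day 77, and Kcnd2 there gave -0.36 (-0.72 to -0.0019, adjusted p = 0.665). The 2 day 77 CnATg groups overlapped for both genes. The genotype by drug difference at day 45 had 0 calls among 30 members (0.00753% of all features, 0 at an unadjusted p under 0.05).

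**Figure D5:**
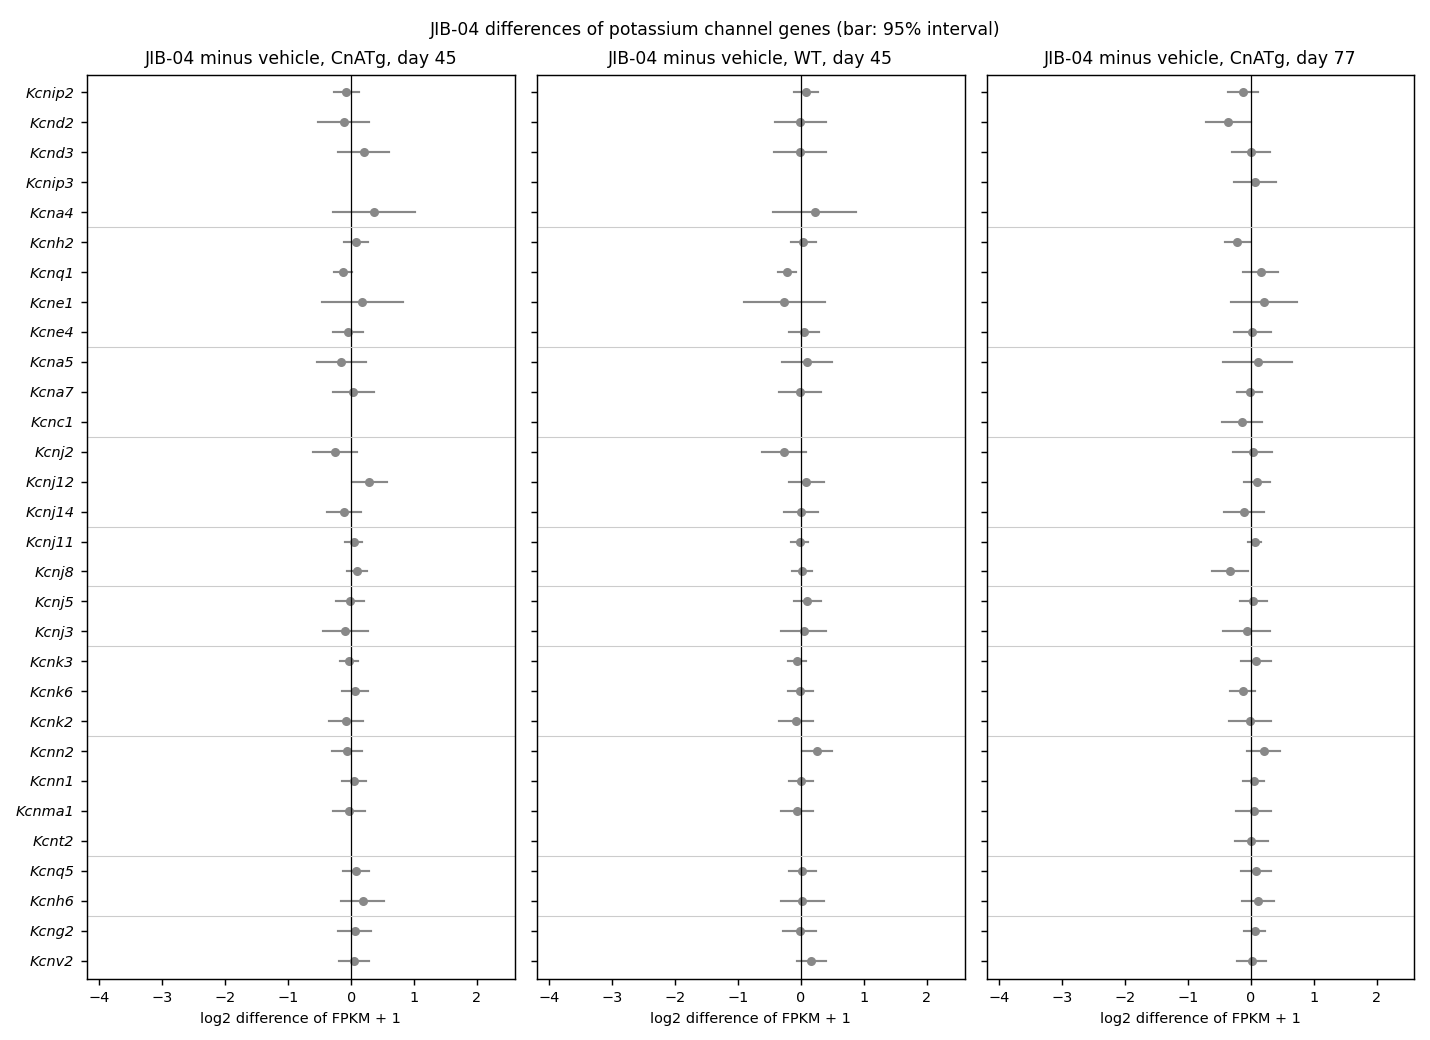
Log2 differences of FPKM + 1, JIB-04 minus vehicle (x axis, same range as the plot of genotype differences), for the members reported here (y axis, grouped by class) in 3 comparisons, with bars for 95% intervals. All points are grey, since no member was called, and they lie between -0.36 and 0.36.

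Age gave 1 call. From day 45 to day 77 in WT with JIB-04, Kcnv2 rose by 0.52 (SE 0.10, adjusted p = 0.0398), the only call among 33 members (0.328% of all features, 0.212% higher and 0.117% lower), and its 3 libraries of day 77, at 3.11 to 4.26 FPKM, all lay above those of day 45, at 2.28 to 2.38. That call was lost with a pseudocount of 0.1, with median-ratio scaling, with mitochondrial and hemoglobin transcripts left out, with only the compared groups in the fit and with a replicate block. It was also lost without any 1 of WT JIB-04 replicates 1, 2 and 3 of day 45 or replicates 2 and 3 of day 77, leaving 0 calls. In the same comparison Kcne1 gave -0.99 (-1.62 to -0.36, adjusted p = 0.133), from 5.36 to 14.2 FPKM to 1.97 to 6.21. In CnATg limma called 0 of 33 with vehicle (0.0365% of all features, 0.0219% higher and 0.0146% lower, 4 at an unadjusted p under 0.05, Kcnj11, Kcnj5, Kcnk3 and Kcnq1) and 0 of 33 with JIB-04 (0.0365%, 0.0146% higher and 0.0219% lower, 3 at an unadjusted p under 0.05, Kcnip3, Kcnj8 and Kcnk6), where Kcnj8 gave -0.48 (adjusted p = 0.196) and was called without CnATg JIB-04 replicate 4 of day 77 (-0.58, adjusted p = 0.0424). The genotype by age difference with JIB-04 had 0 calls among 33 (0.00729% of all features, 3 at an unadjusted p under 0.05, Kcnv2, Kcnj8 and Kcne1), with -0.50 for Kcnv2 (adjusted p = 0.562). Libraries of the 2 ages did not overlap for 4 members in CnATg with vehicle, 4 in CnATg with JIB-04 and 5 in WT with JIB-04, against 8.61%, 8.36% and 17.2% of all features. These were Kcna5, Kcne4, Kcnh2 and Kcnk3, then Kcng2, Kcnip3, Kcnj8 and Kcnk3, then Kcna4, Kcnc1, Kcnj2, Kcnk6 and Kcnv2. Age and the length of treatment cannot be told apart.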

How the data were processed

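Hearts were profiled by unstranded mRNA sequencing after Trizol extraction, per the labels' protocols. The deposited values are log2(FPKM + 1) per gene and library, checked against the files' ranges. The submitters' processing notes name STAR 2.7.1a, Picard, GATK 4.1.2, Cufflinks 2.2.1 and GRCm38, with no roles or order. Blank lines (6 in all) and 3 mitochondrial transcripts listed at 0 in part of the libraries were dropped. Loci of members are as deposited, and 20 of the 33 were the same in the GENCODE M21 gene annotation.

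Features reaching an FPKM of 1 in 3 or more libraries of a fit were tested with limma 3.58.1 (R 4.3.3, moderated two-sided test with intensity trend) on the deposited scale, with Benjamini-Hochberg adjustment over all features and a threshold of 0.05. Day 45 comparisons used 12 libraries, day 77 comparisons 11, and age comparisons 23. The script was tested on simulated data. Members whose genotype change was called and at least 0.5 in size, and Kcne1, Kcnj3 and Kcnip2, are given by library, the rest by range; some genes are counted but not reported here. Members, gene lists and tests were chosen with earlier results of these data known. Absolute depth is unknown, so no counting error is given. Alternatives covered pseudocount, filter, scaling, libraries in the fit, sex, replicate block, trend and each library left out.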

Additional observations from a re-analysis of the deposited data

Results flagged for a closer look

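In the 2 groups of 4 libraries, 1 library stood apart from the other 3 for 4 of the 60 pairs of a member reported here and a group, by Dixon's criterion. Chance alone marks about 1 in 20 such sets. For Kcna5 the lowest CnATg JIB-04 library of day 77 was at 2.42 FPKM and the lowest CnATg vehicle library of day 77 at 2.6, both well under the rest of their groups. Kcne1 had its lowest CnATg JIB-04 library of day 77 at 0.145 FPKM. Kcnma1 had its highest CnATg vehicle library of day 77 at 3.59 FPKM. With JIB-04 at day 77, Kcna5 kept its call without the library that stood apart (-0.67, adjusted p = 0.0344), and Kcne1 did too (-1.71, adjusted p = 0.00077).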

How the results depend on the processing

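Of the 54 genotype calls of members, 46 were kept under every alternative in which they were tested. The 46 include every call of Kcne1, Kcnv2, Kcnj14, Kcnma1 and Kcnq5, and that of Kcnc1 at day 77. These members passed the filter through 1 genotype alone, so the filter favours a call in them and the count overstates robustness. Kcne1 and Kcnv2 were not tested at day 77 under 3 alternatives, those that leave out 1 WT library. Without a filter on low values, the vehicle count at day 45 was 26 rather than 17, since more members were tested. Leaving out 1 library gave 16 to 17 calls with vehicle at day 45, 17 to 18 with JIB-04 at day 45 and 16 to 21 with JIB-04 at day 77, and 0 to 1 for age in CnATg with JIB-04. For age in WT with JIB-04, the count of 1 became 0 with log2(FPKM + 0.1), median-ratio scaling, without mitochondrial and hemoglobin genes, only the groups compared, or the replicate block, and 0 to 1 with 1 library left out. Kcnj11 with JIB-04 at day 77 reversed to 0.1306 once mitochondrial and hemoglobin genes were dropped. Dropping them moved the median of all features there from -0.0053 to 0.1898, and the cause of the reversal was not tested. That setting also raised the share of higher calls from 23.5% to 35.3%, from 27.8% to 42.1% and from 26.3% to 42.9%. Kcna5 at day 77 lost its call without the filter (adjusted p = 0.0572), and Kcnj5 with vehicle when only the compared groups entered the fit (0.0508).

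Only for vehicle against JIB-04 in WT at day 45 did every library correlate best with its own number (0.17, 0.04 and 0.16). There the sexes also matched number by number. Of all pairs of libraries, replicate 1 of these groups differed least (mean absolute log2 difference 0.1556), and replicate 3 gave 0.173. Some CnATg pairs of unlike number lay between, at 0.1653 to 0.1718. In the other comparisons replicate numbers did not pair the libraries. With the replicate block, genotype counts were 17, 18 and 18, and treatment counts 0. Relative depth, a coarse estimate, was 0.623 (1 library) to 1.012 in WT and 1.012 to 1.225 in CnATg.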

Other observations

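Each group held libraries of both sexes, judged from Ddx3y against Xist. No member was called between sexes by limma (0 of 33, against 0.751% of 13710 features), with 1 at an unadjusted p under 0.05, Kcna7 (male minus female 0.14, adjusted p = 0.386).

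Some members under the level threshold were called between genotypes when no filter was applied. Kcnj6, another Kir3 pore gene, was higher in all 3 comparisons (0.12, 0.27 and 0.20), and Kcnc2, a Kv3 pore gene, was lower in all 3 (-0.14, -0.12 and -0.10). Kcnmb1, the BK beta subunit of smooth muscle, was lower with vehicle at day 45 and with JIB-04 at day 77 (-0.28 and -0.42). All 3 were singled out with their values known. None reached 1 FPKM in any library, with highest values of 0.236 for Kcnj6, 0.135 for Kcnc2 and 0.659 for Kcnmb1.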
